A study of Mus musculus with 12 samples.

Results

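The 9 genes described here encode enzymes of serine synthesis and of folate-dependent one-carbon metabolism: Phgdh, Psat1, Psph, Shmt1, Shmt2, Mthfd1, Mthfd2, Mthfd1l and Tyms. They were represented by 24 of the 32533 probe sets, and by 9 of the 15858 genes, of a mouse expression array series. Every probe set annotated with exactly 1 of these symbols was taken, and the probe sets of a gene were averaged. The set was selected on the pathway with the group differences of these same arrays already known, so the members' differences are given as a description and no p-value is attached to them.

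In cells, PHGDH, PSAT1 and PSPH turn the glycolytic intermediate 3-phosphoglycerate into serine. SHMT1 in the cytosol and SHMT2 in mitochondria then split serine into glycine and a carbon unit carried on tetrahydrofolate. MTHFD2 and MTHFD1L process that unit in mitochondria, MTHFD1 does so in the cytosol, and the units feed the synthesis of purines and of thymidylate, which TYMS makes. Dividing blood progenitors and leukaemia cells are known to draw on this pathway to make nucleotides.

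Total RNA was measured on 12 arrays in 4 groups of 3. Every group, the controls included, carried HoxA9, the homeobox factor used to immortalise the C57BL/6 marrow from which the cells derive, and which sustains the growth of myeloid progenitors. The IDH1mut cells carried the retroviral vector pSF91-IDH1mut-IRES-GFP, which expresses a mutant of isocitrate dehydrogenase 1 whose cancer-associated forms make the metabolite R-2-hydroxyglutarate, here R-2HG. Cells of the R-2HG group were empty vector cells in recipients dosed with R-2HG at 1 mg per day over 4 weeks, the IDH1wt cells carried pSF91-IDH1wt-IRES-EGFP with the wild-type enzyme, and the empty vector cells carried neither. Cells were grown in irradiated recipient mice, and GFP-positive bone marrow cells were sorted 4 weeks after transplantation or treatment; no label gives the animals' ages. For the R-2HG arrays a description field names the IDH1mut vector, while the empty vector stands in the title, source name, construct field and series design, and these were followed. The labels do not say whether replicates came from separate mice, so the spread behind each p-value is that between these samples and may be technical.

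The deposited values are log2 values centred on each probe set's own middle, so each value below is a difference from that middle and not an absolute level. Levels of different genes can therefore not be set against each other, and the labelled cell type could not be checked by whether its markers are present. In such bulk samples, fewer cells of a type and less RNA per cell cannot be told apart. Pairs of arrays of a group differed over the probe sets with an SD of 0.178 to 0.362, and pairs from different groups with an SD of 0.294 to 0.555. R-2HG replicate 3 stood apart from the other R-2HG arrays, with an SD of 0.35 to replicate 1 and of 0.362 to replicate 2, against 0.178 between replicates 1 and 2. Counts and named genes that involve R-2HG are therefore also given with replicates 1 and 2 left out, which leaves 1 R-2HG array whose spread is taken from the other groups.

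The promoter windows of the genes are shown because some of the members, though not all, moved together across the arrays. All 9 members matched the RefSeq promoter table (build GRCm38.p6), with 10 windows, 2 of them for Psat1. Windows of 250 bases before the annotated start were searched on both strands for 4 motifs: CCAAT, the box bound by NF-Y; TGATGNAA, the core of the element bound by ATF4; CACGTG, the E-box bound by MYC with MAX; and GCGGGAA, an E2F core. Windows of 4 members follow, 5′ to 3′ on the gene's strand, with CCAAT and its reverse complement ATTGG in capitals. They are those of the 3 serine synthesis enzymes and of Mthfd2, whose pattern across the groups differed from theirs.
Phgdh: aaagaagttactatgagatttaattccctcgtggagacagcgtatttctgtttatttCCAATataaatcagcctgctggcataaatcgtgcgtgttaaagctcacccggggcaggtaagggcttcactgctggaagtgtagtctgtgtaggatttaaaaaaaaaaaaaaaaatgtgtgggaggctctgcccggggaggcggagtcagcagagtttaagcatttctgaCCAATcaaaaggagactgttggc
Psat1: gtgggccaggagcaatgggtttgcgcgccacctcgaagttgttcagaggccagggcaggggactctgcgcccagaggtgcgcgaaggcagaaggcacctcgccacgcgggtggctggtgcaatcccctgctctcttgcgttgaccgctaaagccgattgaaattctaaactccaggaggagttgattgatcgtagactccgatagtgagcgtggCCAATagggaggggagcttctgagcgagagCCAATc
Psph: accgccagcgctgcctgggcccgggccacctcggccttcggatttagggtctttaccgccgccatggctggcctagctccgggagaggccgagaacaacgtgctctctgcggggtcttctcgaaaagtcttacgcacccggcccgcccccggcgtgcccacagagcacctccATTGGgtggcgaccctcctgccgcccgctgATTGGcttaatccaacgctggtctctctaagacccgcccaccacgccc
Mthfd2: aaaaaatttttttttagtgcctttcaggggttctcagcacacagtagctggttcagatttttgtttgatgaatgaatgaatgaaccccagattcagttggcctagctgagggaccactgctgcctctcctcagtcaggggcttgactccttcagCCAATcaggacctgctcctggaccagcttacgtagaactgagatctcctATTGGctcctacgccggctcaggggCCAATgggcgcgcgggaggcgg

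Those windows lie at chr3:98339970-98340219 for Phgdh, chr19:15925060-15925309 for Psat1, chr5:129787254-129787503 for Psph and chr6:83317605-83317854 for Mthfd2, all on the minus strand. CCAAT was found in 6 of the 10 members' windows. There were 2 matches each for Phgdh, Psat1 and Psph, 3 for Mthfd2 and 1 each for Shmt1 and Mthfd1. The other Psat1 window, at chr19:15924623-15924872, is not printed and had 0 matches. CCAAT was found in 33.8% of all 32851 windows of the table. TGATGNAA was found in 0 of the 10 windows and in 3.45% of all windows. CACGTG was found in the Tyms window alone among the 10, and in 6.02% of all windows. GCGGGAA was found in the Mthfd1 window alone among the 10, and in 3.82% of all windows. No match overlapped a match of another of these motifs, and a match describes letters only.

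Phgdh, which commits 3-phosphoglycerate to serine, was lowest in R-2HG cells, next in IDH1mut cells and higher in IDH1wt and empty vector cells. Centred log2 values of Phgdh were -0.04, 0.05 and -0.04 in IDH1mut cells, -0.63, -0.66 and -0.33 in R-2HG cells, 0.61, 0.40 and 0.59 in IDH1wt cells, and 0.45, 0.21 and 0.27 in empty vector cells. IDH1mut, R-2HG and empty vector arrays did not overlap with each other, while IDH1wt and empty vector arrays did. Against empty vector, the log2 fold change was -0.32 ± 0.10 in IDH1mut cells and -0.85 ± 0.10 in R-2HG cells (SE of the limma fit, n = 3 per group, as for all log2 fold changes below). It was 0.22 ± 0.10 in IDH1wt cells.

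Psat1, the aminotransferase of the next step, had the lowest log2 fold change of the 9 genes in R-2HG cells. Centred log2 values of Psat1 were 0.06, -0.03 and -0.02 in IDH1mut cells, -0.99, -1.21 and -0.36 in R-2HG cells, 0.45, 0.32 and 0.34 in IDH1wt cells, and 0.24, 0.30 and 0.15 in empty vector cells. No pair of groups overlapped, but R-2HG replicates 1 and 2 lay far below replicate 3. Against empty vector, the log2 fold change was -1.09 ± 0.16 in R-2HG cells. It was -0.23 ± 0.16 in IDH1mut cells and 0.14 ± 0.16 in IDH1wt cells.

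Psph, the phosphatase that releases serine, was highest in empty vector cells. The Psph arrays had centred log2 values of 0.05, 0.06 and 0 in IDH1mut cells, -0.29, -0.29 and -0.31 in R-2HG cells, 0.33, -0.08 and 0.13 in IDH1wt cells, and 0.49, 0.67 and 0.56 in empty vector cells. The 3 R-2HG arrays lay close together (SD 0.01) and below every other array, and all 3 empty vector arrays lay above every array of the other groups.
Psph was also the member whose IDH1wt arrays all lay below the empty vector arrays, with a log2 fold change of -0.44 ± 0.09. The log2 fold change was -0.53 ± 0.09 in IDH1mut cells and -0.87 ± 0.09 in R-2HG cells, and the difference between IDH1mut and IDH1wt cells was -0.09 ± 0.09, with overlapping arrays.

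**Figure D1:**
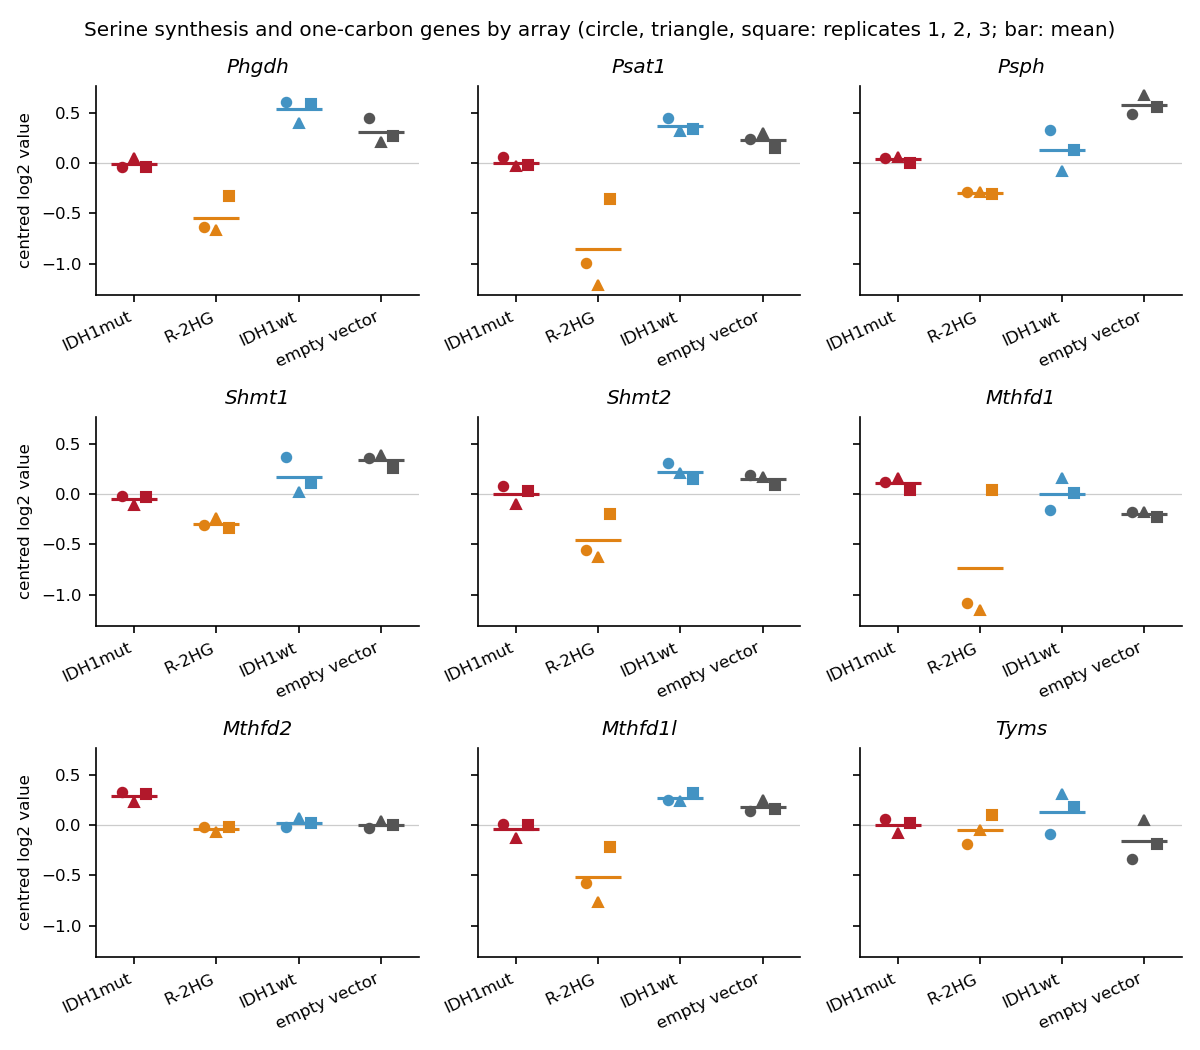
Centred log2 value (vertical axis) of each of the 9 genes on each of the 12 arrays, by group, with circle, triangle and square for replicates 1, 2 and 3 and a bar at the group mean. For Phgdh, Psat1, Shmt2, Mthfd1 and Mthfd1l, R-2HG replicates 1 and 2 lie below replicate 3, while for Psph and Shmt1 the 3 R-2HG arrays lie together. Mthfd2 is high in the 3 IDH1mut arrays, between 0.23 and 0.33, against at most 0.07 in the other arrays.

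Of the enzymes that split serine, cytosolic Shmt1 resembled Psph and mitochondrial Shmt2 resembled Psat1. Shmt1 had centred log2 values of -0.02, -0.11 and -0.03 in IDH1mut cells, -0.31, -0.24 and -0.34 in R-2HG cells, 0.37, 0.02 and 0.11 in IDH1wt cells, and 0.36, 0.39 and 0.26 in empty vector cells. R-2HG arrays were lowest, IDH1mut arrays next and IDH1wt arrays above them, without overlap, and IDH1wt overlapped empty vector. The log2 fold change against empty vector was -0.39 ± 0.09 in IDH1mut cells and -0.63 ± 0.09 in R-2HG cells. It was -0.17 ± 0.09 in IDH1wt cells.

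Shmt2 had centred log2 values of 0.08, -0.10 and 0.03 in IDH1mut cells, -0.55, -0.62 and -0.20 in R-2HG cells, 0.31, 0.21 and 0.15 in IDH1wt cells, and 0.19, 0.17 and 0.09 in empty vector cells. R-2HG arrays were the lowest, and the highest IDH1mut array lay just below the lowest empty vector array. Against empty vector, the log2 fold change was -0.14 ± 0.10 in IDH1mut cells and -0.61 ± 0.10 in R-2HG cells. It was 0.08 ± 0.10 in IDH1wt cells.

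Mthfd1l, the mitochondrial synthetase that releases formate, followed Shmt2. On the log2 scale, its centred values were 0.01, -0.13 and 0 in IDH1mut cells, -0.57, -0.76 and -0.22 in R-2HG cells, 0.25, 0.24 and 0.32 in IDH1wt cells, and 0.14, 0.25 and 0.16 in empty vector cells. R-2HG arrays lay lowest and IDH1mut arrays next, both apart from empty vector arrays, which overlapped IDH1wt. The log2 fold change against empty vector was -0.22 ± 0.11 in IDH1mut cells and -0.70 ± 0.11 in R-2HG cells. It was 0.09 ± 0.11 in IDH1wt cells.

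Mthfd2, the mitochondrial dehydrogenase and cyclohydrolase that many proliferating cells express strongly, ran differently from the other mitochondrial members. Its centred log2 values were 0.33, 0.23 and 0.31 in IDH1mut cells, -0.02, -0.07 and -0.02 in R-2HG cells, -0.02, 0.07 and 0.02 in IDH1wt cells, and -0.03, 0.04 and 0 in empty vector cells. The 3 IDH1mut arrays lay above the other 9, whose groups overlapped each other. Against empty vector, the log2 fold change was 0.29 ± 0.06 in IDH1mut cells, -0.04 ± 0.06 in R-2HG cells and 0.02 ± 0.06 in IDH1wt cells. Between IDH1mut and R-2HG cells the log2 fold change was 0.33 ± 0.06, and between IDH1mut and IDH1wt cells it was 0.26 ± 0.06. Both Mthfd2 probe sets gave this pattern, at 0.28 and 0.29 for IDH1mut against empty vector.

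Mthfd1, the cytosolic enzyme with 3 activities on carried carbon units, varied most among the R-2HG arrays. Its centred log2 values were 0.12, 0.16 and 0.04 in IDH1mut cells, -1.08, -1.15 and 0.04 in R-2HG cells, -0.16, 0.16 and 0.01 in IDH1wt cells, and -0.18, -0.18 and -0.23 in empty vector cells. R-2HG replicates 1 and 2 lay below all other arrays, and replicate 3 lay above the empty vector arrays. The log2 fold change of R-2HG against empty vector was -0.53 ± 0.24, and it was 0.24 with R-2HG replicates 1 and 2 left out and -0.92 with replicate 3 left out. In IDH1mut cells it was 0.30 ± 0.24 and in IDH1wt cells 0.20 ± 0.24, with an SE from the spread of all groups together. The SD between arrays was 0.67 in R-2HG cells, 0.06 in IDH1mut cells, 0.16 in IDH1wt cells and 0.03 in empty vector cells. All IDH1mut and IDH1wt arrays lay above the empty vector arrays.

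Erythroid markers varied over the same arrays in a like order. The median of 11 measured erythroid genes of 15 listed was 0.15, 0.39 and 0.31 in IDH1mut cells, -1.81, -1.85 and 0 in R-2HG cells, -0.95, 0.33 and -0.17 in IDH1wt cells, and -0.80, -0.62 and -0.71 in empty vector cells. As with Mthfd1, R-2HG replicates 1 and 2 were lowest, and within IDH1wt cells replicate 1 was lowest and replicate 2 highest. The part of these cells in the Mthfd1 values was not tested.

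**Figure D2:**
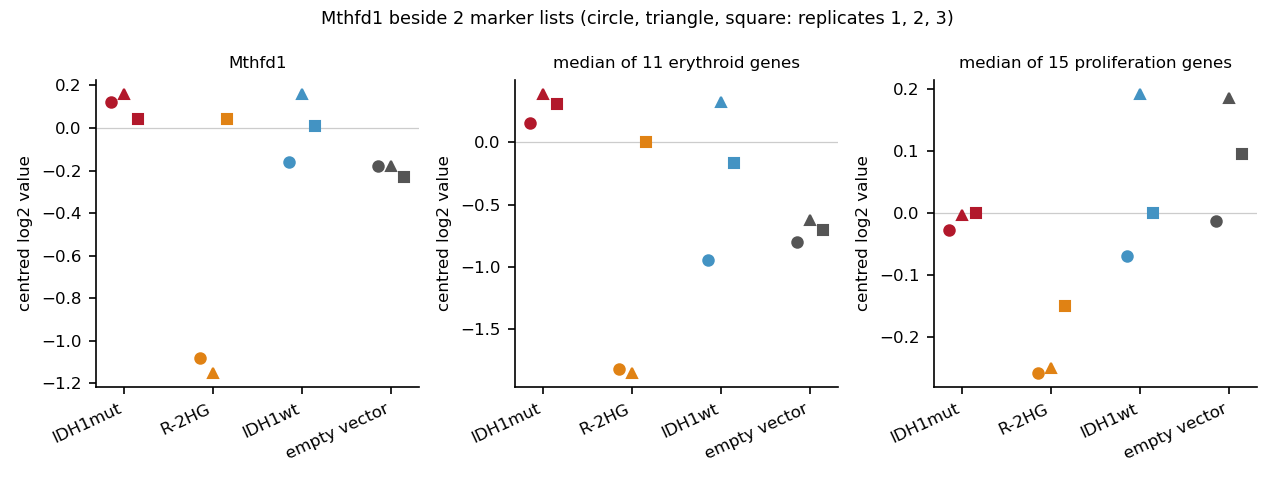
Centred log2 value (vertical axes, each with its own range) of Mthfd1, the median of 11 erythroid genes and the median of 15 proliferation genes on each of the 12 arrays, by group, with circle, triangle and square for replicates 1, 2 and 3. R-2HG replicates 1 and 2 are lowest in all 3 panels; replicate 3 is at 0.04 for Mthfd1, at 0 for the erythroid genes and at -0.15 for the proliferation genes.

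Tyms, thymidylate synthase, had no clear order. The arrays had centred log2 values of 0.06, -0.08 and 0.02 in IDH1mut cells, -0.19, -0.05 and 0.10 in R-2HG cells, -0.09, 0.31 and 0.18 in IDH1wt cells, and -0.34, 0.05 and -0.19 in empty vector cells. Neighbouring groups overlapped throughout. The log2 fold change against empty vector was 0.16 ± 0.12 in IDH1mut cells, 0.11 ± 0.12 in R-2HG cells and 0.29 ± 0.12 in IDH1wt cells. Its 3 probe sets gave between -0.28 and 0.48 for R-2HG against empty vector, so they disagreed in direction.

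Set side by side, the median log2 fold change of the 9 genes was -0.22 for IDH1mut against empty vector and -0.63 for R-2HG against empty vector. The medians of all 15858 genes were -0.05 and 0 in the same order. These comparisons share the empty vector arrays. Limma with Benjamini-Hochberg adjustment over all genes at a threshold of 0.05 called 4 of the 9 genes in IDH1mut cells, where it called 22.6% of all genes. Of these, Mthfd2 was higher (10.5% of all genes were called higher) and Phgdh, Psph and Shmt1 were lower (12.1% were called lower). In R-2HG cells it called 6 of the 9 genes, all lower, where it called 40.8% of all genes and 24.3% as lower. Arrays of the groups compared did not overlap for 8 members in IDH1mut cells (41.1% of all genes) and for 6 in R-2HG cells (53.5% of all genes). Nothing is read from these counts, since the members were chosen with these contrasts known.

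**Figure D3:**
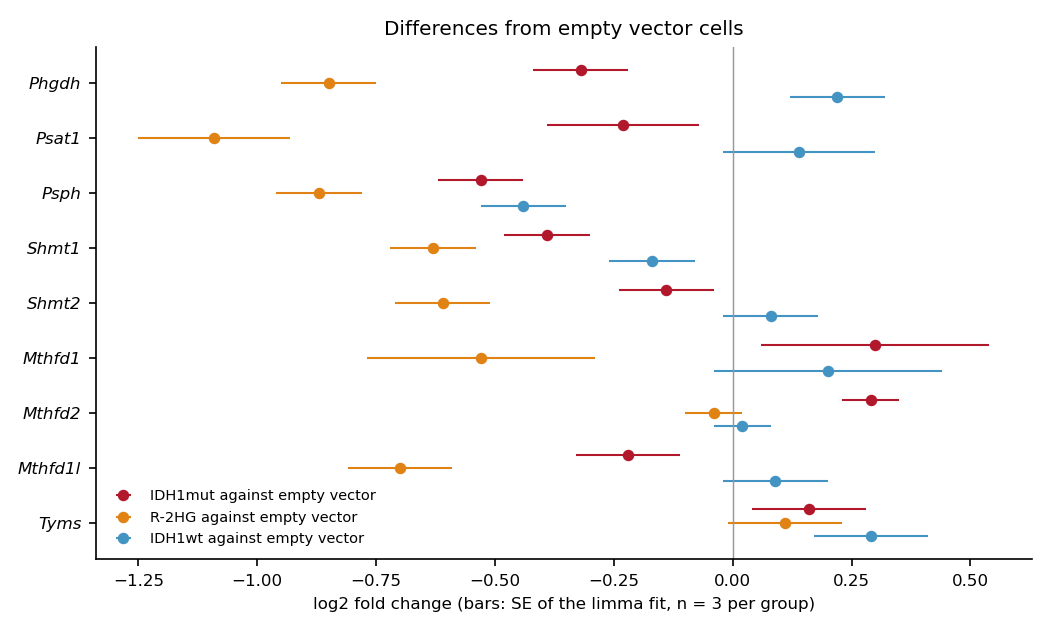
Log2 fold change (horizontal axis) against empty vector cells for each of the 9 genes, in IDH1mut, R-2HG and IDH1wt cells from top to bottom within a gene, with the SE of the limma fit as bars (n = 3 per group). R-2HG lies between -1.09 and -0.53 for 7 genes and at -0.04 and 0.11 for Mthfd2 and Tyms; IDH1mut lies on the higher side of 0 for Mthfd1, Mthfd2 and Tyms.

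With R-2HG replicates 1 and 2 left out, the R-2HG fold changes of Psph and Shmt1 against empty vector were -0.88 and -0.68, against -0.87 and -0.63 with all arrays. Those of Phgdh, Psat1, Shmt2 and Mthfd1l moved to -0.64, -0.60, -0.35 and -0.41. With replicate 3 left out instead they were -0.95, -1.33, -0.74 and -0.85. The direction of these 6 genes was thus the same in both kinds of R-2HG array, and the size for Phgdh, Psat1, Shmt2 and Mthfd1l was not. Of the 9 members, 5 were called with replicates 1 and 2 left out (11.5% of all genes) and 7 with replicate 3 left out (44.3% of all genes).

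IDH1wt against empty vector called 1 of the 9 genes, Psph, where 1.35% of all genes were called. The call was lost without any 1 of 9 of the 12 arrays, each left out in turn. The median of the 9 genes was 0.09, and that of all genes was -0.04. Phgdh was the member with the widest difference between IDH1mut and IDH1wt cells, at -0.54 ± 0.10, without overlap of the arrays. Psat1 and Mthfd1l differed by -0.37 ± 0.16 and -0.31 ± 0.11 between IDH1mut and IDH1wt cells. In that comparison 2 of the 9 genes were called, Phgdh lower and Mthfd2 higher, where 15.7% of all genes were called, and the median of the 9 genes was -0.22.

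The mean of IDH1mut cells was above that of R-2HG cells for all 9 genes, with a median log2 fold change of 0.46, and the median over all genes was 0. The values ran from 0.04 ± 0.12 for Tyms and 0.24 ± 0.09 for Shmt1 to 0.84 ± 0.24 for Mthfd1 and 0.86 ± 0.16 for Psat1. Of the 9 genes, 8 were called, Tyms being the exception, where 36% of all genes were called. The arrays did not overlap for 7 of them (47.9% of all genes), and nothing is read from these counts either. With R-2HG replicates 1 and 2 left out, 0 of the 9 genes were called and 2.12% of all genes were, and the value for Mthfd1 was 0.06 and that for Tyms -0.10. The values for Mthfd2, Psph and Phgdh were then 0.31, 0.35 and 0.32.

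The probe sets of a gene shared a direction more often than a size. For R-2HG against empty vector, 21 of the 24 probe sets had a log2 fold change below 0, with a range from -1.25 to 0.48. For IDH1mut against empty vector 16 lay below 0, with a range from -0.53 to 0.38. The 4 Phgdh probe sets ran from -1.18 to -0.48 for R-2HG against empty vector, and the 4 Shmt1 probe sets from -1.05 to -0.20. For IDH1mut against R-2HG cells the Phgdh probe sets ran from 0.08 to 0.87 and the Shmt1 probe sets from -0.12 to 0.55, so 1 Shmt1 probe set gave the opposite order to the gene's mean. All 4 Phgdh probe sets, 3 of the 4 Shmt2 probe sets and 1 of the 3 Mthfd1 probe sets carry the suffix of probes that can also match other transcripts, so near copies could contribute to them.

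**Figure D4:**
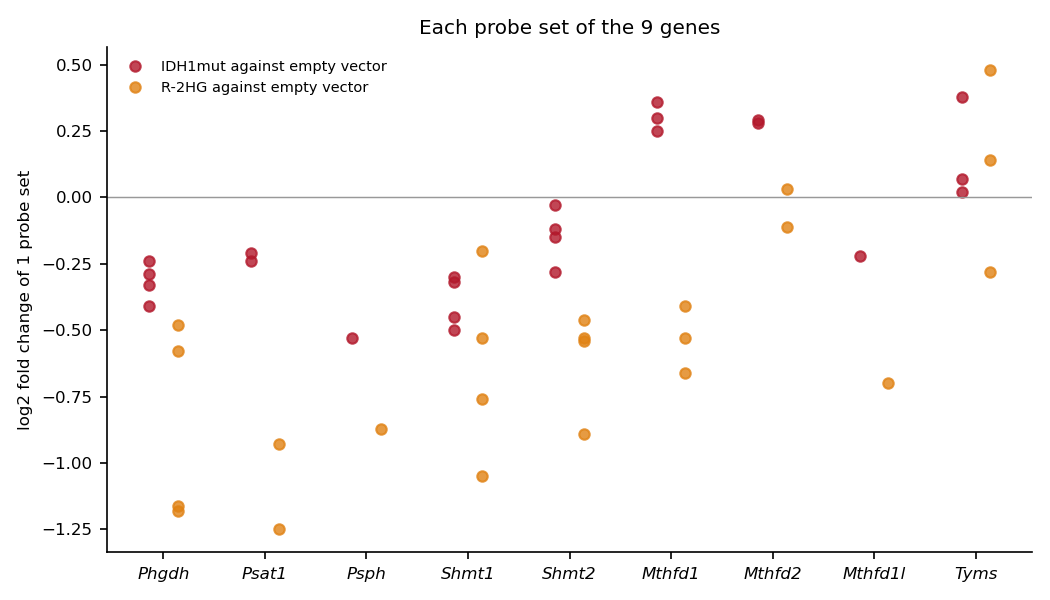
Log2 fold change (vertical axis) of each of the 24 probe sets of the 9 genes against empty vector, with IDH1mut left of R-2HG within a gene. The R-2HG points of Phgdh spread from -1.18 to -0.48 and those of Shmt1 from -1.05 to -0.20, while the 3 Tyms probe sets lie on both sides of 0.

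Across the 12 arrays, which fall into the 4 groups, Psat1, Shmt2 and Mthfd1l had Pearson correlations of 0.98 to 0.99 with each other, and Psph and Shmt1 had 0.94. Mthfd2 had 0.02 with Phgdh and 0.17 with Mthfd1l, and Tyms had -0.32 with Psph. These are descriptions over arrays that share group and preparation. The genes whose pattern was most like the mean of the 9 members were Klhdc2 (r = 0.99), Rad1 (0.99), Tars (0.989), Pgam5 (0.989) and Papss1 (0.988), over 12 arrays. For single members the most alike genes were Rpl22 for Phgdh (0.987), Papss1 for Psat1 (0.989), Nipsnap3b for Psph (0.99), Tmed4 for Shmt1 (0.98) and Ahcy for Shmt2 (0.986). They were Stx2 for Mthfd1 (0.991), Zfyve26 for Mthfd2 (0.975), Nudcd1 for Mthfd1l (0.989) and Birc6 for Tyms (0.861).

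The other genes of the pathway were taken from 6 lists, of which 59 of 69 genes were measured. Most genes named below were picked by the smallest F test p of their list over the contrasts against empty vector. They were thus picked by values of these same arrays. In R-2HG cells 36 of the 59 passed the test against empty vector (40.8% of all genes did), 31 lower (24.3% of all genes) and 5 higher, with a median log2 fold change of -0.31. In IDH1mut cells 12 passed (22.6% of all genes did), 10 lower (12.1%) and 2 higher (10.5%), with a median of -0.10, a share of calls near that of all genes. With R-2HG replicates 1 and 2 left out, 12 genes passed in R-2HG cells (11.5% of all genes did), 11 of them lower. The median was then -0.26, and 45 of the 59 values lay below 0, against 43 with all arrays.

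Fewer arrays enter that fit. Of the genes named below, Slc46a1, Gcsh, Ahcy, Dut, Rrm1, Prps1, Prps2, Myc and E2f2 kept their R-2HG call in it, and the others lost theirs. Among the losses, Mthfd2l, Slc19a1, Dld, Impdh1 and Nfe2l2 were then at -0.37, -0.33, -0.33, -0.37 and 0.31, against -0.43, -0.38, -0.36, -0.34 and 0.36 with all arrays. The other losses were Slc25a32 (-0.35), Aldh1l1 (-0.41), Aldh1l2 (0.30), Mtrr (-0.26), Gnmt (0.28), Slc6a9 (0.18), Gart (-0.24), Dhodh (-0.45), Dctd (-0.65) and Atf5 (-0.18), and in this fit none of these 15 genes changed direction.

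The list of purine and thymidylate synthesis also holds other nucleotide genes, among them Dhodh and Rrm1. It held 18 of the 31 genes that fell in R-2HG cells and 4 of the 10 that fell in IDH1mut cells. In R-2HG cells 18 of its 19 genes fell (24.3% of all genes did) and 0 rose, with a median of -0.52. With R-2HG replicates 1 and 2 left out, the median was -0.41 and 18 of the 19 values still lay below 0. Dut, which clears dUTP, had centred log2 values of -0.14, -0.09 and -0.18 in IDH1mut cells, -0.38, -0.37 and -0.39 in R-2HG cells, 0.02, 0.07 and 0.09 in IDH1wt cells, and 0.21, 0.36 and 0.28 in empty vector cells. Its groups did not overlap, and it fell in R-2HG cells (-0.67 ± 0.06, limma adjusted p = 5.09e-05) and in IDH1mut cells (-0.42 ± 0.06, limma adjusted p = 0.000625). Rrm1, the large subunit of ribonucleotide reductase, fell in R-2HG cells (-0.62 ± 0.08, limma adjusted p = 0.000177) and was at -0.01 ± 0.08 in IDH1mut cells. Prps1 and Prps2, which make the ribose phosphate donor of purine synthesis, fell by 0.69 and 0.68 on the log2 scale in R-2HG cells.

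The widest change of that list was in Dctd, dCMP deaminase, at -1.28 ± 0.24 in R-2HG cells (limma adjusted p = 0.00156, and 0.102 at -0.65 with R-2HG replicates 1 and 2 left out), a gene singled out after its values were seen. In IDH1mut cells 4 of the 19 genes fell (12.1% of all genes did), with a list median of -0.15. They were Dut, and by values chosen after they were seen Impdh1 (-0.43 ± 0.09), Dhodh (-0.37 ± 0.10) and Gart (-0.33 ± 0.09). In IDH1wt cells Impdh1, Dhodh and Gart were at -0.34 ± 0.09, -0.16 ± 0.10 and -0.13 ± 0.09 against empty vector. For Impdh1 the difference between IDH1mut and IDH1wt cells was -0.09 ± 0.09, with overlapping arrays. The gene of the list that did not fall in R-2HG cells was Rrm2, the small subunit of ribonucleotide reductase, at 0.11 ± 0.08. Between IDH1mut and R-2HG cells 15 of the 19 genes were called higher in IDH1mut cells, beside 3212 of all 15858 genes. In either direction 36% of all genes were called. The median of the list was 0.37, with 18 values above 0. Leaving out R-2HG replicates 1 and 2, the median was 0.19, with 2 values below 0.

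Proliferation genes moved beside this list. Of 15 measured cell cycle genes, 2 fell in IDH1mut cells (12.1% of all genes did), with a median of -0.05, and 11 fell in R-2HG cells (24.3% of all genes did), with a median of -0.33. Without R-2HG replicates 1 and 2, the median in R-2HG cells was -0.21, with 14 values below 0. Their median per array lay between -0.03 and 0 in IDH1mut cells, between -0.26 and -0.15 in R-2HG cells, between -0.07 and 0.19 in IDH1wt cells, and between -0.01 and 0.19 in empty vector cells. Their part in the results of the pathway was not tested.

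Of the folate genes, 7 of 13 fell (24.3% of all genes did) and 1 rose in R-2HG cells. The list median was -0.31, with 9 values below 0. With R-2HG replicates 1 and 2 left out, the list median was -0.30 and 10 values lay below 0. Slc46a1, the proton-coupled folate transporter, had centred log2 values of -0.03, -0.18 and -0.22 in IDH1mut cells, -0.09, -0.07 and -0.17 in R-2HG cells, 0.21, 0.13 and 0.23 in IDH1wt cells, and 0.25, 0.33 and 0.52 in empty vector cells. It fell in IDH1mut cells (-0.51 ± 0.08, limma adjusted p = 0.00105) and in R-2HG cells (-0.47 ± 0.08, limma adjusted p = 0.00102), and the difference between these groups was -0.04 ± 0.08. Slc25a32, the mitochondrial folate carrier, fell in R-2HG cells (-0.55 ± 0.11, limma adjusted p = 0.00282) and was at -0.07 ± 0.11 in IDH1mut cells. Mthfd2l, the close relative of Mthfd2, fell in R-2HG cells (-0.43 ± 0.08) and was at -0.08 ± 0.08 in IDH1mut cells. Slc19a1, the reduced folate carrier, was at -0.38 ± 0.08 in R-2HG cells, but 1 of its probe sets pointed the other way.

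The folate gene that rose in R-2HG cells was Aldh1l2, a mitochondrial formyl-tetrahydrofolate dehydrogenase, at 0.44 ± 0.14. The cytosolic counterpart Aldh1l1 fell in R-2HG cells (-0.64 ± 0.15) and in IDH1mut cells (-0.51 ± 0.15). In IDH1wt cells Aldh1l1 was at -0.36 ± 0.15, and its difference between IDH1mut and IDH1wt cells was -0.14 ± 0.15. Both Aldh1l2 and Aldh1l1 were named after their values were seen.

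The glycine cleavage system, which takes glycine apart in mitochondria, was measured by 3 genes. Gcsh, its lipoate carrier, had centred log2 values of -0.02, 0.10 and 0 in IDH1mut cells, -1.18, -1.02 and -0.57 in R-2HG cells, 0.30, 0.17 and 0.27 in IDH1wt cells, and 0.24, 0.14 and 0.04 in empty vector cells. All 3 R-2HG arrays lay below the other 9, and Gcsh fell in R-2HG cells (-1.06 ± 0.13, limma adjusted p = 0.000136). Dld, the dehydrogenase it shares with other complexes, fell by 0.36 on the log2 scale in R-2HG cells, and Gldc, the decarboxylase, was at 0 ± 0.09. Gcsh passed with R-2HG replicates 1 and 2 left out (-0.71, limma adjusted p = 0.00582), and Dld did not (-0.33). In IDH1mut cells 0 of the 3 genes passed (22.6% of all genes did).

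Of the methionine cycle genes 2 of 7 fell (24.3% of all genes did) and 1 rose in R-2HG cells against empty vector. In IDH1mut cells 0 passed (22.6% of all genes did). Ahcy, which hydrolyses S-adenosylhomocysteine, fell in R-2HG cells (-0.77 ± 0.10, limma adjusted p = 0.000244) and was at -0.23 ± 0.10 in IDH1mut cells. Mtrr, which reactivates methionine synthase, fell in R-2HG cells (-0.55 ± 0.14), and Mtr, methionine synthase, was at -0.26 ± 0.11 (limma adjusted p = 0.0756). Gnmt, glycine N-methyltransferase, rose in R-2HG cells (0.35 ± 0.11), a call lost without any 1 of empty vector replicates 2 and 3 or R-2HG replicates 1 and 2, at limma adjusted p-values from 0.0742 to 0.104. With R-2HG replicates 1 and 2 left out, the list median was -0.08, against 0.03 with all arrays.

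Of the genes of serine and glycine transport and use, 1 of 7 passed in R-2HG cells against empty vector (40.8% of all genes did). In IDH1mut cells 1 of 7 passed against empty vector (22.6% of all genes did). Slc6a9, a glycine transporter, rose in R-2HG cells (0.30 ± 0.09, limma adjusted p = 0.0189), a call lost without empty vector replicate 2 (limma adjusted p = 0.0699) or R-2HG replicate 2 (limma adjusted p = 0.0885). Alas1, which uses glycine to begin haem synthesis, fell in IDH1mut cells (-0.34 ± 0.10, limma adjusted p = 0.0296), a call lost without any 1 of empty vector replicates 2 and 3 or IDH1mut replicates 1, 2 and 3, at limma adjusted p-values from 0.0549 to 0.104. Slc1a4, a serine transporter, was at 0.07 ± 0.06 in IDH1mut cells and -0.05 ± 0.06 in R-2HG cells. Srr, serine racemase, was at -0.13 ± 0.07 and -0.09 ± 0.07 in the same order.

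**Figure D5:**
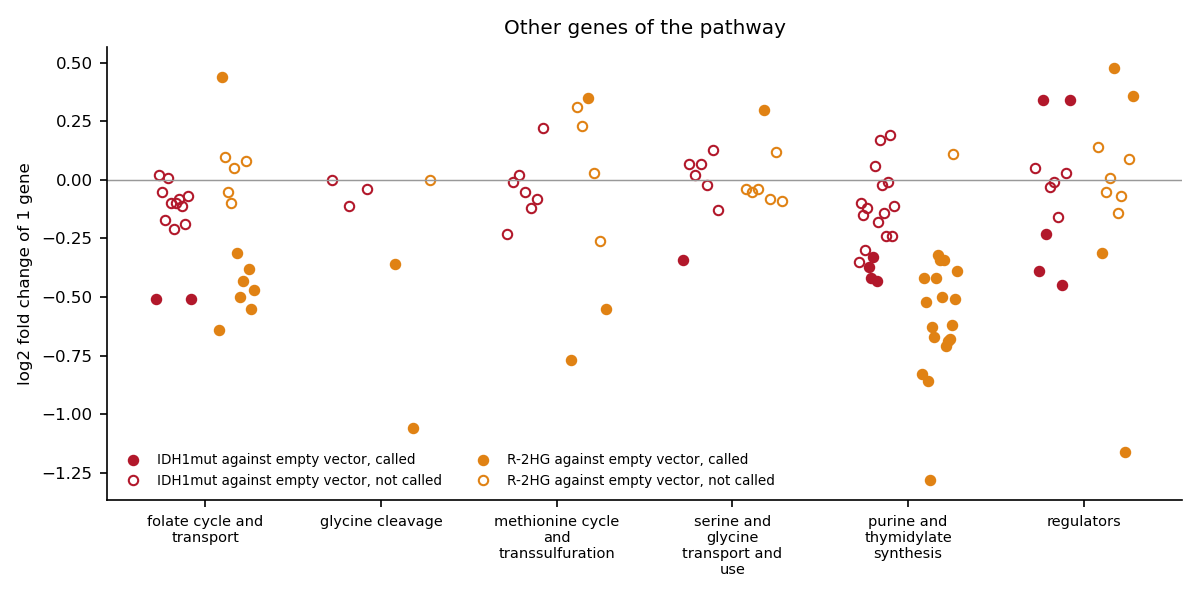
Log2 fold change (vertical axis) against empty vector of each measured gene of the 6 lists, with IDH1mut left of R-2HG within a list; filled points passed the limma test at an adjusted p of 0.05 and open points did not. In purine and thymidylate synthesis 18 of 19 R-2HG points are filled and lie below 0, against 4 of 19 for IDH1mut. Of all genes, 24.3% and 12.1% were called lower in the same order.

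The 10 regulators were transcription factors and the kinase gene Mtor. Among them, Myc had centred log2 values of -0.23, 0.03 and 0 in IDH1mut cells, -0.98, -0.91 and -0.42 in R-2HG cells, 0.28, 0.37 and 0.23 in IDH1wt cells, and 0.42, 0.37 and 0.38 in empty vector cells. IDH1mut arrays lay between R-2HG arrays and those of the other groups, without overlap. Myc fell in R-2HG cells (-1.16 ± 0.13, limma adjusted p = 9.1e-05) and in IDH1mut cells (-0.45 ± 0.13, limma adjusted p = 0.0226). The IDH1mut call was lost without any 1 of empty vector replicates 1, 2 and 3 or IDH1mut replicate 1, at adjusted p-values from 0.0558 to 0.081.

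Atf4, the amino acid response factor known to drive Phgdh, Psat1, Shmt2 and Mthfd2, passed in no comparison. It was at 0.05 ± 0.07 in IDH1mut cells and 0.14 ± 0.07 in R-2HG cells (limma adjusted p = 0.668 and 0.143). Its centred log2 values were -0.05, -0.07 and 0.03 in IDH1mut cells, -0.08, 0.14 and 0.12 in R-2HG cells, -0.16, -0.20 and -0.21 in IDH1wt cells, and -0.08, -0.01 and -0.15 in empty vector cells. ATF4 is regulated largely at translation, which these arrays do not measure. Ddit3, a stress factor downstream of it, rose in IDH1mut cells (0.34 ± 0.10, limma adjusted p = 0.032) and was at -0.05 ± 0.10 in R-2HG cells. The difference between these groups was 0.39 ± 0.10 (limma adjusted p = 0.0134, and 0.164 with R-2HG replicates 1 and 2 left out), and the IDH1mut call against empty vector was lost without any 1 of empty vector replicates 1, 2 and 3 or IDH1mut replicate 1, at limma adjusted p-values from 0.0733 to 0.106.

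Nfe2l2, the antioxidant response factor, rose in IDH1mut cells (0.34 ± 0.08, limma adjusted p = 0.00747) and in R-2HG cells (0.36 ± 0.08, limma adjusted p = 0.00303). E2f2 rose in R-2HG cells (0.48 ± 0.11, limma adjusted p = 0.00459) and was at -0.03 ± 0.11 in IDH1mut cells. Atf5 fell in both groups and E2f1 in IDH1mut cells, both named after their values were seen, at -0.39 ± 0.11 for Atf5 and -0.23 ± 0.07 for E2f1 in IDH1mut cells and -0.31 ± 0.11 for Atf5 in R-2HG cells.

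IDH1wt against empty vector gave 0 calls among the 59 genes with limma, and 6 had an unadjusted p under 0.05, where 16.2% of all genes did. IDH1mut against IDH1wt gave 8 calls, 6 lower and 2 higher, where 15.7% of all genes were called, among them Slc46a1 (-0.34 ± 0.08), Ahcy (-0.37 ± 0.10), Ddit3 (0.51 ± 0.10) and Nfe2l2 (0.33 ± 0.08). Without single arrays, the call of Slc46a1 was lost at limma adjusted p-values from 0.0521 to 0.063 (IDH1wt replicate 1 or 3, IDH1mut replicate 2 or 3), and that of Nfe2l2 at 0.0544 (IDH1wt replicate 3). The call of Ahcy was lost without any 1 of IDH1mut replicates 1 and 2 or IDH1wt replicates 1, 2 and 3, at limma adjusted p-values from 0.0527 to 0.114. IDH1mut against R-2HG gave 29 calls, 24 higher and 5 lower, with a median of 0.13, where 36% of all genes were called. It gave 2 calls with R-2HG replicates 1 and 2 left out, with a median of 0.10, where 2.12% of all genes were called.

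Markers of maturation and of other cell types moved with the groups as well. The median of 8 early myeloid genes lay between -0.58 and -0.40 in IDH1mut cells, between -0.40 and -0.22 in R-2HG cells, between 0.07 and 0.19 in IDH1wt cells, and between 0.14 and 0.28 in empty vector cells. That of 10 late neutrophil genes lay between 0.20 and 0.27 in IDH1mut cells, between 0.13 and 0.24 in R-2HG cells, between -0.12 and -0.03 in IDH1wt cells, and between -0.27 and -0.10 in empty vector cells. Taking 10 genes of mast cells, basophils and eosinophils together, the medians lay between -0.55 and -0.03 in IDH1mut cells, at -1.77, -1.90 and 0.36 in the R-2HG arrays, between 0 and 0.89 in IDH1wt cells, and between -0.03 and 0.14 in empty vector cells. The 7 dendritic cell genes gave -0.28 to 0.01 in IDH1mut cells, -0.81, -1.07 and 0.44 in the R-2HG arrays, 0.10 to 0.31 in IDH1wt cells and 0 to 0.19 in empty vector cells. In both lists R-2HG replicates 1 and 2 were lowest, as for Mthfd1.

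The 6 monocyte genes had medians of 0.04, -0.66 and -0.27 in the IDH1mut arrays, -0.13 to 0.06 in R-2HG cells, 0.22 to 0.34 in IDH1wt cells and 0.12 to 0.14 in empty vector cells. The 10 B cell genes had medians of 0.43 to 1.39 in IDH1mut cells, -0.69 to -0.20 in R-2HG cells, -0.47 to 0.60 in IDH1wt cells and 0 to 1.34 in empty vector cells. The 7 T and NK cell genes lay between -0.16 and 0.44 and the 6 megakaryocyte genes between -0.55 and 0.12 over all 12 arrays. In these centred values no marker can be called absent, and the part of these cells in the members' values was not tested.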

How the data were processed

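Expression of the 9 genes was measured on 12 Affymetrix mouse arrays, 3 per group, with groups taken from titles, source names and construct fields. The deposited values are log2 values made with RMA (version not given in the sources used here), per the submitters' processing notes. Each probe set is centred, with no more than 7 of its 12 values on either side of 0. The centring step is not given in the sources used here, and absolute level and signal over background are unknown; the number of arrays limits the precision.

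Of 32533 probe sets, 28805 had 1 gene symbol in the platform annotation, 757 several and 2971 none; 28674 of the first kind matched a RefSeq gene table by Entrez identifier. Probe sets with 1 symbol were averaged per gene, which gave 15858 genes. Limma 3.58.1 in R 4.3.3 fitted all 12 arrays with 1 coefficient per group (lmFit and eBayes, no trend; degrees of freedom 8 residual and 3.96 prior). Tests were two-sided, p-values were adjusted by Benjamini-Hochberg across all genes, and a gene was called under 0.05. The fit was tested on simulated data. Across the comparisons it recovered 52.2% to 70.1% of simulated log2 changes of 0.5 and 91% to 98.5% of those of 1. Far fewer genes were changed there than were called here for IDH1mut or R-2HG against empty vector. Each simulated gene had the same spread in every group, with noise drawn independently for each array. In the data R-2HG replicate 3 stood apart, so these rates need not hold for comparisons with R-2HG cells. The members and all lists were chosen with earlier results of these data known. Named beside the members were, in each pathway list, the 4 genes with the smallest F test p over the 3 contrasts against empty vector, all 3 genes of glycine cleavage, and Atf4 and Myc; for likeness, the highest Pearson r over 12 arrays. A further gene that the rule names is not reported here. Marker and proliferation lists are given as medians per array.

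Promoters came from RefSeq (GRCm38.p6). Python 3.11.15 and matplotlib 3.10.9 were used for sequences and figures. Alternatives were the probe set with the highest SD, single probe sets, quantile normalization, eBayes with trend, array weights, a replicate block, a filter on SD at the 30th percentile, fits of 6 arrays, a fold change minimum of 1.5, each array left out in turn, and R-2HG replicates 1 and 2 left out together.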

Additional observations from a re-analysis of the deposited data

How the results depend on the processing

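Of the 9 genes' log2 fold changes under all alternatives, 926 moved by less than the spread between replicates, 78 by more, and 1 that was called with all arrays reversed: Shmt1 in IDH1mut against R-2HG cells was -0.12 with 1 single probe set. A further 12 values changed sign where the gene was not called, 7 of them for Tyms, 3 for Mthfd2 and 1 for Psph; the other was Mthfd1 in R-2HG against empty vector, at 0.24 with R-2HG replicates 1 and 2 left out, against -0.53. Among the other named genes, 2432 values stayed called or stayed uncalled, 111 lost a call, 45 gained one and 2 reversed. Uncalled values that changed sign are counted among the 2432. An example is Gldc in IDH1mut against R-2HG, at 0.04 with R-2HG replicates 1 and 2 left out, against -0.03. Both reversals were at 1 Slc19a1 probe set. There, R-2HG against empty vector stood at 0.32 (limma adjusted p = 0.0634), and IDH1mut against R-2HG at -0.35 (limma adjusted p = 0.0468). The cause was not tested for any of these.

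Counts of called genes moved as follows. With each array left out in turn, calls among the 9 genes ran from 3 to 6 for IDH1mut against empty vector, 6 to 7 for R-2HG against empty vector, 0 to 1 for IDH1wt against empty vector, 2 to 4 for IDH1mut against IDH1wt and 5 to 8 for IDH1mut against R-2HG. Among the 59 other genes they ran from 4 to 16, 30 to 36, 0 to 1, 2 to 11 and 19 to 31 in the same order. The share of all genes called then ran from 15.3% to 25.9%, 28.9% to 44.3%, 0.53% to 2.36%, 9.89% to 18.8% and 19.6% to 41%. The 4 came without empty vector replicate 2, the 5 without R-2HG replicate 2, the 19 without R-2HG replicate 1 or 2, and the lower 2 without IDH1wt replicate 3 or IDH1mut replicate 2. For IDH1mut against empty vector, the 12 calls among the other genes were also 7 without empty vector replicate 1 or IDH1mut replicate 1 and 6 without empty vector replicate 3 or IDH1mut replicate 3; for IDH1mut against IDH1wt the 8 were 4 without IDH1wt replicate 1 or IDH1mut replicate 3 and 5 without IDH1mut replicate 1.

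With R-2HG replicates 1 and 2 left out, the 9 genes gave 7, 0, 4 and 0 calls for IDH1mut and IDH1wt against empty vector, IDH1mut against IDH1wt and IDH1mut against R-2HG (23.3%, 1.51%, 16.2% and 2.12% of all genes), and the other genes 12 for R-2HG against empty vector, 1 for IDH1wt against empty vector and 2 for IDH1mut against R-2HG. A fold change minimum of 1.5 left 0 calls in IDH1mut and IDH1wt against empty vector and in IDH1mut against IDH1wt, and 2 of 9 and 6 of 59 in IDH1mut against R-2HG and 13 of 59 in R-2HG against empty vector; it left 5.86%, 0.75%, 3.76%, 6.5% and 10.3% of all genes in these 5 comparisons. Counting any single probe set gave 20 other genes for IDH1mut against empty vector and 16 for IDH1mut against IDH1wt (28.8% and 19.3% of all genes). The filter on SD gave 1 and 5 calls for IDH1mut against IDH1wt in the 9 and the other genes (20.2% of all genes), quantile normalization gave 4 in the 9 genes there (18%) and 1 other gene for IDH1wt against empty vector (3.29%), array weights gave 3 other genes for that comparison (8.75%), and fits of 6 arrays gave 0 of the 9 genes for IDH1wt against empty vector (1.78%) and 5 other genes for IDH1mut against IDH1wt (11.6%).

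Same-numbered arrays of different groups had deviations correlated between -0.152 and 0.124 (18 pairs, 1 over 0.1). These values showed no pairing by replicate number over all genes, but they cannot show that same-numbered samples were prepared apart. A replicate block gave 0 calls for IDH1wt against empty vector among the 9 genes, against 1 without it, 3 against 4 for IDH1mut against empty vector and 7 against 8 for IDH1mut against R-2HG (0.927%, 20.5% and 33.7% of all genes with the block). Signal over background is unknown for these values, so its limits could not be given.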

Other observations

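Probe sets annotated with a member and a near copy were left out of the gene values, and 3 such probe sets exist. That of Tyms and Tyms-ps averaged -0.09 ± 0.10 in IDH1mut cells, -0.35 ± 0.13 in R-2HG cells, 0.07 ± 0.07 in IDH1wt cells and 0.22 ± 0.17 in empty vector cells (centred log2, SD, n = 3 each). Its R-2HG arrays, from -0.48 to -0.21, lay below its empty vector arrays, from 0.02 to 0.33, whereas the arrays of these groups overlapped in the mean of the 3 probe sets annotated with Tyms alone. Those of Phgdh with Gm6756 and with Gm8096 averaged -0.86 ± 0.21 and -1.08 ± 0.49 in R-2HG cells, against 0.34 ± 0.18 and 0.45 ± 0.14 in empty vector cells, and -0.03 ± 0.07 and 0.06 ± 0.24 in IDH1mut cells. Probes of these sets cannot be assigned to 1 transcript, and they were not tested.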
